A study of Mus musculus with 4 samples.

Results

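The 10 genes described here encode secreted ligands and membrane receptors of vascular endothelial growth factor (VEGF) and angiopoietin signalling: the ligands Vegfa, Vegfc, Vegfd, Angpt1 and Angpt2, and the receptors Kdr, Flt1, Flt4, Tek and Tie1. They were chosen by symbol, with earlier results of these data known, and are 10 of the 31053 features in the deposited matrices. Cells of the stromal vascular fraction (SVF, what a digested fat pad yields besides adipocytes) of mouse inguinal white adipose tissue (iWAT) were profiled by single-cell RNA-seq. Cells of 7 control mice (C57BL/6) and of 8 iAdFASNKO mice were pooled by genotype, and each pool was divided with magnetic beads into an immune fraction (Lin+) and a non-immune fraction (Lin-), which gave 4 libraries, 1 per genotype and fraction. The name iAdFASNKO is left unexplained in the labels; it is known as a line in which Fasn, which encodes fatty acid synthase, is deleted in adipocytes on induction. Age, sex and inducing agent do not appear in the labels used here. Each group is 1 library of pooled mice, so differences between genotypes lack replicates and were not tested.

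VEGF ligands signal through receptor tyrosine kinases on endothelium. VEGF-A binds KDR (VEGFR-2), the main signalling receptor of blood vessel growth, and FLT1 (VEGFR-1), which binds the ligand tightly and signals weakly, while VEGF-C and VEGF-D act through FLT4 (VEGFR-3), the receptor known for lymphatic growth. Angiopoietin 1 activates TEK (Tie2) and is made by perivascular and mesenchymal cells, angiopoietin 2 can oppose or mimic it depending on context, and TIE1 is a partner receptor of TEK without a well-established ligand of its own. In fat, these signals are known for tying the vessel bed to the growth and thermogenic state of the tissue.

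Positions are those of mm10. Kdr lies on chromosome 5 from 75932827 to 75978458, Flt1 on chromosome 5 from 147561604 to 147726011, Flt4 on chromosome 11 from 49609263 to 49652739, Tek on chromosome 4 from 94739289 to 94874976 and Tie1 on chromosome 4 from 118471191 to 118490061. Among the ligands, Vegfa lies on chromosome 17 from 46016993 to 46032369, Vegfc on chromosome 8 from 54077606 to 54187096, Vegfd on chromosome X from 164373378 to 164402650, Angpt1 on chromosome 15 from 42424723 to 42676977 and Angpt2 on chromosome 8 from 18690263 to 18741562. Promoters of 8 members were matched in RefSeq tables of build GRCm38.p6. The stretches before the start sites are shown for the 3 receptors that had 200 or more bases outside annotated exons there. Flt4 and Tie1 had 0 and 38 such bases in their windows of 250. The 3 receptors shown divided the cell classes in different ways: Kdr in both endothelial classes, Flt1 in blood endothelium, and Tek in endothelium and in progenitors. The stretches are chr5:75978459-75978705 on the minus strand for Kdr (247 bases), chr5:147726012-147726261 on the minus strand for Flt1 (250 bases) and chr4:94739039-94739288 on the plus strand for Tek (250 bases). Capitals mark the ETS core GGAAG read on either strand (CTTCC on the other), a short motif bound by ETS factors, many of which act in endothelium.
Kdr: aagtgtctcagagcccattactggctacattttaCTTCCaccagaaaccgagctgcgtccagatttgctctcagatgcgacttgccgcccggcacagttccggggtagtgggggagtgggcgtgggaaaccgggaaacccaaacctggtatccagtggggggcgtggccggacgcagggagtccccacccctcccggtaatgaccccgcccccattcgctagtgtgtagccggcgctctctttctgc
Flt1: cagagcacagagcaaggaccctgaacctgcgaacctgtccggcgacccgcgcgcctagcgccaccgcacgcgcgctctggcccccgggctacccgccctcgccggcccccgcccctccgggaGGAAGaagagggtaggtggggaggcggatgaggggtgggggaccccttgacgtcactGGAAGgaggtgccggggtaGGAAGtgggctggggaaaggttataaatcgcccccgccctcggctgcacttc
Tek: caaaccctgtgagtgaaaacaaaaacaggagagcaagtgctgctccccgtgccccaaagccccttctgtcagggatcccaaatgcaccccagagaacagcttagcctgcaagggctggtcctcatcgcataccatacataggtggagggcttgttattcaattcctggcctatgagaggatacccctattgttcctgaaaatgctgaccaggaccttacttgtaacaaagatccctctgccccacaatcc
The motif occurred 3 times before Flt1, 1 time before Kdr and 0 times before Tek. In the windows of Flt4 and Tie1, which lie wholly or mostly in exons, the motif occurred 1 and 6 times. It is present in 64.1% of the 32817 mouse promoter windows of 250 bases, so a match is a description of these letters, and the lack of one says only that they are not in this window.

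The files held 18336 barcodes, of which 14701 were retained as cells. Total UMIs (unique molecular identifiers, here counted at the 3' end of transcripts) were 33016494 in Lin- control, 22557680 in Lin- iAdFASNKO, 21622291 in Lin+ control and 25865546 in Lin+ iAdFASNKO, with medians of 9116, 4150.5, 5359 and 3302 UMIs per retained cell. Fasn stood at 38.0 and 24.9 CPM (UMIs of a gene per 1000000 UMIs of the cells named) in retained Lin- cells of control and iAdFASNKO, and at 36.3 and 21.7 CPM in Lin+; adipocytes are not part of the SVF, so this does not check the deletion. Genotypes were taken from the names of the 2 matrices, and swapped names would reverse every direction given between genotypes. Cells were put into classes by markers that include none of the 10 members, and a class is called X-like for that reason. Endothelial cells counted as lymphatic when they held Prox1 or Mmrn1 and 2 or more lymphatic markers, and as blood endothelial when they held no UMI of Prox1, Mmrn1, Lyve1 or Reln; 73 cells met neither condition. Blood endothelial-like cells were few: 8 in Lin- control, 59 in Lin- iAdFASNKO, 15 in Lin+ control and 47 in Lin+ iAdFASNKO. Lymphatic endothelial-like cells numbered 120 and 171 in Lin- (control, iAdFASNKO) and 10 and 7 in Lin+. In Lin- there were 318 and 949 mural-like cells and 2187 and 2197 progenitor-like cells, and in Lin+ 1636 and 1455 progenitor-like cells. Cells that met the markers of no class, called unassigned, were 5.53% and 10.1% of retained cells in Lin- and 14.5% and 22.4% in Lin+.

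Libraries shared cell barcodes. Between 109 and 170 barcode sequences occurred in each pair of libraries, and 488 retained cells (3.32%) carried such a sequence. The lymphatic class of Lin- had 13 such cells among 120 in control and 8 among 171 in iAdFASNKO, and they held 37.0% and 18.8% of the class's UMIs. In the blood class of Lin- they were 2 of 8 and 3 of 59 cells with 52.3% and 10.2% of the UMIs, and in that of Lin+ 5 of 15 and 6 of 47 cells with 33.5% and 27.6%. The main endothelial values are therefore given with and without these cells. In progenitor-like cells the shared barcodes held 2.60% and 3.95% of the UMIs in Lin-, and 8.46% and 1.67% in Lin+.

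Each receptor had its highest level in endothelium, and each ligand had its own set of source classes, as the plot of the 10 genes by class shows. Levels are compared between classes and libraries for 1 gene at a time, since 3' counts of different genes are not on a common scale. Intervals are exact 95% Poisson or, for ratios, exact conditional binomial intervals, and cover counting error only.

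**Figure D1:**
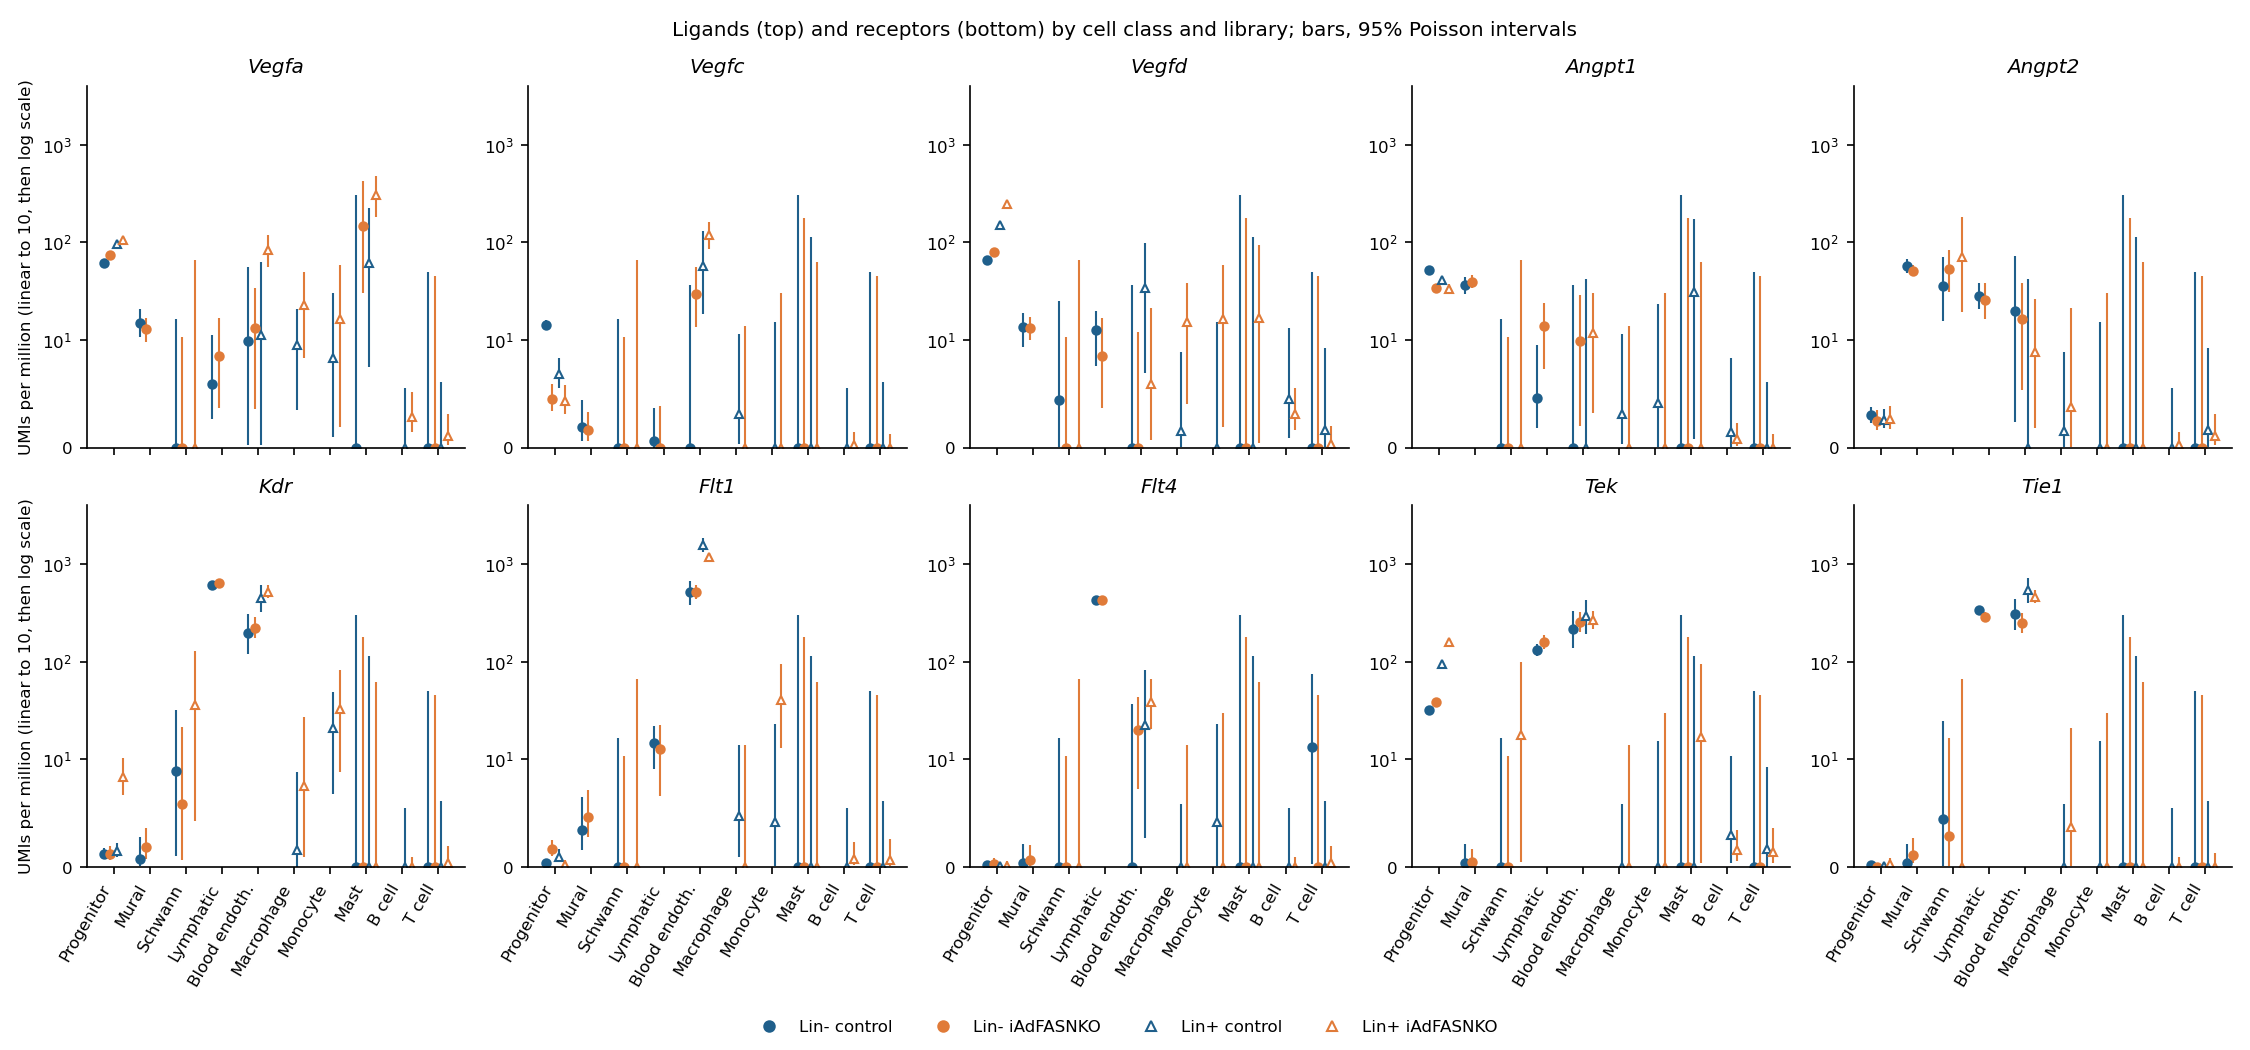
CPM of the class (y axis, linear to 10 and logarithmic above) of each of the 10 genes in 10 cell classes (x axis), for Lin- (filled circles) and Lin+ (open triangles) libraries of control (blue) and iAdFASNKO (orange) mice. Bars are exact 95% Poisson intervals. The 5 receptors stand highest in the endothelial classes, Tek is also present in progenitor-like cells at 31.8 to 157 CPM, and Vegfd is highest in progenitor-like cells at 66.0 to 245 CPM.

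Kdr, the main signalling VEGF receptor, stood at 614 CPM (932 UMIs) in lymphatic endothelial-like cells of Lin- control and at 645 CPM (610 UMIs) in those of Lin- iAdFASNKO. In blood endothelial-like cells it stood at 198 CPM (20 UMIs) and 223 CPM (68 UMIs) in Lin-, and at 450 CPM (40 UMIs) and 523 CPM (177 UMIs) in Lin+. In both Lin- libraries the lymphatic class was thus the higher one, over a blood class with 0 capillary-like cells. The Lin+ blood class lay between. Of the 177 Kdr UMIs of Lin+ iAdFASNKO, 138 came from 7 capillary-like cells and 82 from 1 of them, so that level rests on very few cells. Without shared barcodes the 2 lymphatic levels were 637 and 664 CPM, and the blood levels 186 and 219 CPM in Lin- and 626 and 665 CPM in Lin+.

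Flt1, the tight-binding VEGF-A receptor, was high in blood endothelial-like cells of every library, at 514 CPM (52 UMIs, 37 of them in 1 cell) in Lin- control, 518 CPM (158 UMIs) in Lin- iAdFASNKO, 1586 CPM (141 UMIs) in Lin+ control and 1169 CPM (396 UMIs) in Lin+ iAdFASNKO. Without shared barcodes, which held 52.3% of all UMIs of this class in Lin- control, 15, 143, 122 and 303 Flt1 UMIs were left in the same order. In lymphatic endothelial-like cells of Lin- it stood at 14.5 CPM (22 UMIs) and 12.7 CPM (12 UMIs). A single cell held 20 of the 22 control UMIs, and without shared barcodes 1 UMI was left (1.04 CPM) against 9 UMIs (11.7 CPM) in iAdFASNKO. The few pericyte-like cells of Lin- also held Flt1, at 62.2 CPM (7 UMIs in 15 cells) and 94.9 CPM (9 UMIs in 24 cells), against 0.403 CPM (1 UMI in 300 cells) and 0.954 CPM (4 UMIs in 911 cells) in smooth muscle-like cells; pericytes are the mural cells of capillaries. These counts are below the 20 UMIs asked of a measured gene.

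Flt4, the receptor for VEGF-C and VEGF-D, followed the lymphatic class, with 427 CPM (649 UMIs) in Lin- control and 431 CPM (408 UMIs) in Lin- iAdFASNKO. Blood endothelial-like cells had 0 UMIs in Lin- control, where 3 counts would be 29.6 CPM, 19.7 CPM (6 UMIs) in Lin- iAdFASNKO, and 22.5 and 38.4 CPM in the 2 Lin+ libraries. The groups did not overlap, and without shared barcodes the 2 lymphatic levels were 477 and 473 CPM. Tie1, the partner of TEK, showed no such division: 335 CPM (508 UMIs) and 287 CPM (272 UMIs) in the lymphatic class of Lin-, and 306, 249, 540 and 464 CPM in the blood class of Lin- control, Lin- iAdFASNKO, Lin+ control and Lin+ iAdFASNKO. Tek, the angiopoietin receptor, was at 131 CPM (199 UMIs) and 160 CPM (151 UMIs) in the lymphatic class and at 217, 256, 292 and 266 CPM in the blood class in the same order of libraries. Without shared barcodes Tie1 stood at 333 and 297 CPM in the lymphatic and at 414, 252, 626 and 440 CPM in the blood class, and Tek at 123 and 178 CPM against 372, 285, 254 and 277 CPM.

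At matched depth the share of cells with a UMI set lymphatic cells apart from mural-like ones for Kdr and Flt4. For Flt1 it set blood endothelial-like cells apart from both. These shares do not compare Kdr, Tek or Tie1 between the blood and lymphatic classes. Cells were thinned to 2000 UMIs each and shallower cells were left out (4 of 120 and 42 of 171 lymphatic, 14 of 318 and 81 of 949 mural-like cells of Lin-, and 12 of 59 blood endothelial-like cells of Lin- iAdFASNKO), so the shares are of the deeper cells. In them Kdr was detected in 71.6% and 73.6% of lymphatic endothelial-like cells of Lin- (97.5% and 81.3% unthinned, median depths 8217 and 3008 UMIs), and Flt4 in 47.4% and 56.6% (85.8% and 76.6% unthinned). In mural-like cells, which should lack these receptors, the thinned shares were 0.329% and 0.576% for Kdr (0.629% and 0.843% unthinned) and 0% and 0.115% for Flt4 (0.314% and 0.316%), at median depths of 7833 and 4321 UMIs. Flt1 was detected in 57.4% of thinned blood endothelial-like cells of Lin- iAdFASNKO (71.2% unthinned), in 1.72% and 2.33% of lymphatic ones (2.5% and 3.51%) and in 0.987% and 0.691% of mural-like ones (2.20% and 1.05%).

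Lymphatic against blood endothelial-like cells within 1 library gave the same ordering in both Lin- libraries. Genes with 20 or more UMIs over the 2 sums compared were taken as measured. A size rule was applied to them, which asks for a difference of 1.5 times or more in either direction and an interval that leaves out 1. Of all measured genes, 12.9% in control and 19.9% in iAdFASNKO were past the rule. Kdr was higher in the lymphatic class, by 3.11 (2.0 to 5.11) and 2.89 (2.25 to 3.77). Flt4 was higher by 21.9 (9.98 to 60.04) in iAdFASNKO, and in control it had 649 against 0 UMIs. Flt1 was higher in the blood class, by 35.5 and 40.9, and Tek was 0.603 (0.387 to 0.984) and 0.624 (0.471 to 0.830) of its blood level in the lymphatic class. Tie1 stayed within the rule, at 1.09 (0.760 to 1.62) and 1.15 (0.891 to 1.51). The blood class of Lin- had 0 capillary-like cells in both libraries, and 5 of 8 and 41 of 59 cells were venous-like. These ratios thus leave out capillary-like cells, which held most Kdr UMIs of the Lin+ iAdFASNKO blood class.

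Without shared barcodes Kdr was at 3.42 and 3.03, Tek at 0.331 and 0.626, Tie1 at 0.805 and 1.18 and still within the rule, and Flt1 was 44.6 higher in the blood class of iAdFASNKO, while the control library, with 1 against 15 UMIs, no longer measured Flt1. The blood class of Lin- also held transcripts of lymph-node type vessels: Glycam1, made by high endothelial venules, stood at 13120 CPM in control, with 1290 of its 1328 UMIs in 1 cell, and at 3186 CPM in iAdFASNKO. Ccl21a, which lymphatic cells and venules of lymph nodes can both hold, had 5543 and 2310 CPM there; Prox1, Mmrn1, Lyve1 and Reln are at 0 in this class by its definition. Without cells with 2 or more Glycam1 UMIs, the Kdr ratio was 3.32 and 2.79 and the Tek ratio 0.347 and 0.527. The co-receptor Nrp1, which binds VEGF-A, was lower in the lymphatic class in both libraries, at 4.61 against 188 CPM and 2.11 against 180 CPM, and so was the phosphatase Ptprb, which acts on TEK, at 0.241 and 0.112 of its blood level. Nrp2, the co-receptor known for VEGF-C, was at 0.753 (within the rule) and 0.632 of its blood level.

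**Figure D2:**
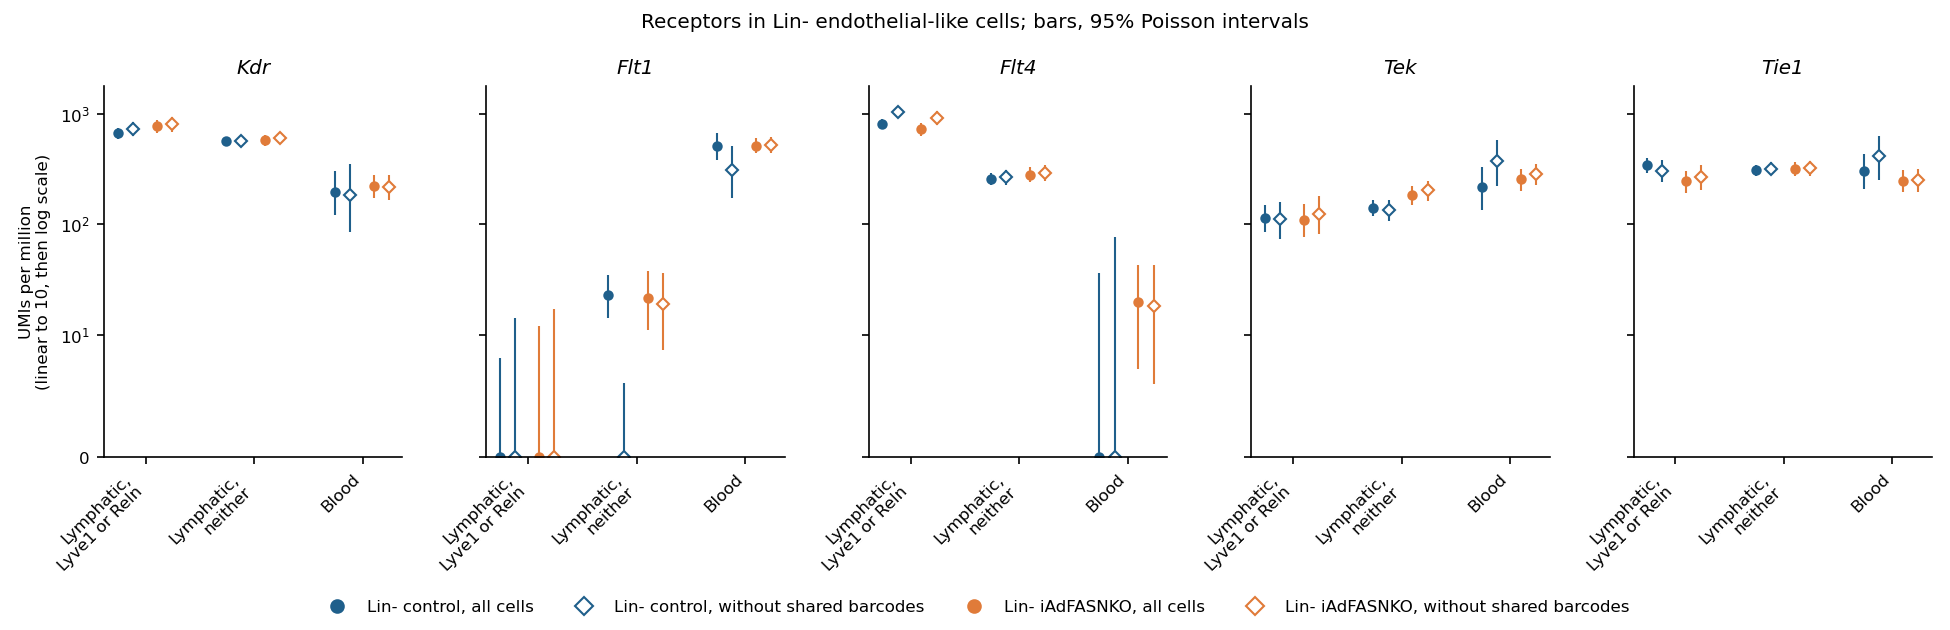
CPM (y axis) of the 5 receptors in lymphatic endothelial-like cells with Lyve1 or Reln, in those with neither, and in blood endothelial-like cells (x axis) of the Lin- libraries of control and iAdFASNKO mice. Circles take all cells, diamonds leave out cells with a shared barcode, and bars are exact 95% Poisson intervals; Flt4 is highest in cells with Lyve1 or Reln, at 813 and 730 with all cells, and Flt1 is highest in the blood class.

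Within the lymphatic class, Flt4 separated cells with 2 or more UMIs of Lyve1 and Reln together from cells with 0. Lyve1 marks mainly lymphatic capillaries, and neither gene is a member. The cells with these UMIs were the shallower ones, with median depths of 6126.5 and 2249 UMIs against 9009 and 4055. Flt4 stood at 813 CPM (369 UMIs, 42 cells) and 730 CPM (226 UMIs, 72 cells) in cells with either gene, and at 258 CPM (239 UMIs, 71 cells) and 283 CPM (158 UMIs, 87 cells) in cells with neither. Cells with either gene were thus higher by 3.15 (2.67 to 3.73) in control and by 2.58 (2.10 to 3.18) in iAdFASNKO, or by 3.89 and 3.14 without shared barcodes. Of all measured genes 14.6% and 12.7% were past the same rule between these sub-classes. Nrp2 was likewise higher, by 2.48 (2.02 to 3.06) and 2.10 (1.62 to 2.71). Kdr differed less, at 1.19 and 1.34 and within the rule. Tek was at 0.811 (0.576 to 1.13) in control, within the rule, and at 0.595 (0.391 to 0.884) in iAdFASNKO, past it. All Flt1 UMIs of the 2 sub-classes, 21 and 12, lay in cells with neither gene, 20 of the 21 in 1 cell.

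Tek was also found outside endothelium. Progenitor-like cells, which carry Pdgfra and collagen genes and include the precursors of adipocytes, held it at 31.8 CPM (710 UMIs) and 38.3 CPM (482 UMIs) in Lin- and at 93.7 CPM (1341 UMIs) and 157 CPM (1607 UMIs) in Lin+. Since these cells were many, they held 74.1%, 62.0%, 89.7% and 84.4% of the Tek UMIs of Lin- control, Lin- iAdFASNKO, Lin+ control and Lin+ iAdFASNKO, although the level in endothelium was the higher one. Unassigned cells held 1.15%, 2.19%, 6.62% and 9.14% of the Tek UMIs in the same order of libraries. The progenitor-like cells divided into interstitial progenitor-like cells, marked by Pi16 and Dpp4 among others, cells marked by Cxcl14 and Smoc2 among others, and 185, 293, 319 and 236 cells in neither sub-class, in the same order of libraries. The interstitial cells stood at 114 and 126 CPM in Lin- and 168 and 218 CPM in Lin+ (control, iAdFASNKO), the Cxcl14 and Smoc2 cells at 31.6, 33.5, 33.9 and 44.5 CPM. In all 4 libraries the interstitial cells were the higher ones, and the 2 sets of levels did not overlap. The ratios were 3.60 (2.58 to 4.91), 3.76 (2.92 to 4.80), 4.95 (4.24 to 5.80) and 4.89 (3.98 to 6.07) in Lin- control, Lin- iAdFASNKO, Lin+ control and Lin+ iAdFASNKO. In these 4 comparisons 15.6%, 16%, 22.5% and 20.3% of measured genes were past the rule.

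Shares of cells with a Tek UMI at 2000 UMIs per cell were 20.5%, 22.8%, 28.7% and 37.3% in interstitial cells and 6.37%, 6.92%, 5.45% and 9.58% in Cxcl14 and Smoc2 cells, in the same order of libraries. Unthinned they were 53.5%, 42.0%, 68.9% and 66.4% against 24.8%, 15.9%, 23.2% and 21.1%, at median depths of 8478, 4264, 8470 and 6506 UMIs against 10631, 5603, 9284 and 7366. B cell-like cells of Lin+, a class without TEK, had 1.10% and 0.243% thinned (0.787% and 0.564% unthinned, median depths 2333.5 and 2524 UMIs), and mural-like cells of Lin- 0% and 0% (0.314% and 0.211%). Cells under 2000 UMIs were again left out: 4, 18, 45 and 115 interstitial cells, 107, 167, 63 and 54 Cxcl14 and Smoc2 cells, and 73 of 254 and 241 of 1063 B cell-like cells. In each fraction both progenitor sub-classes were above the share in the class that should lack the gene.

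**Figure D3:**
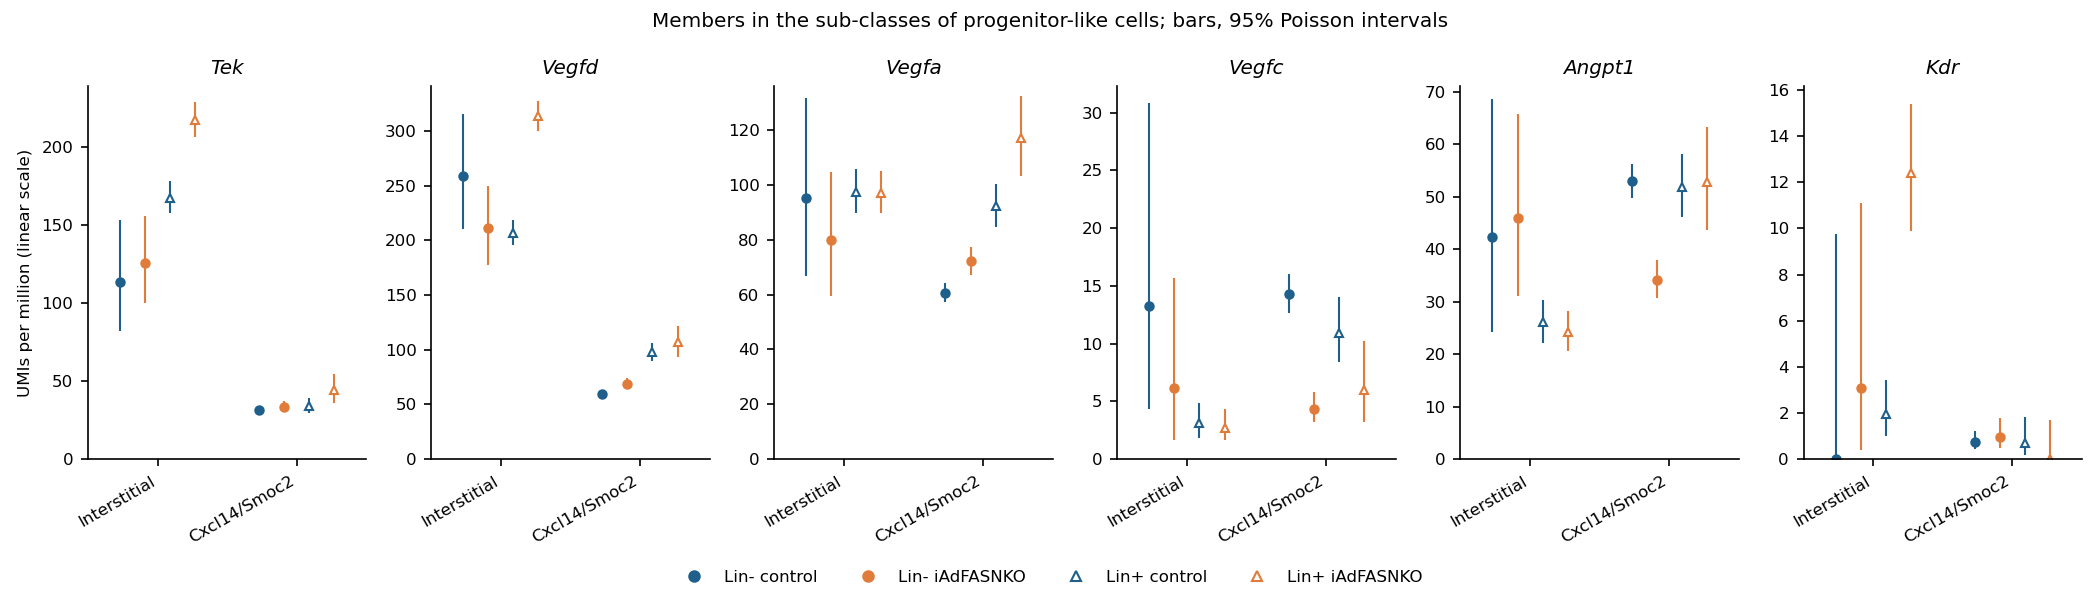
CPM (y axis, linear) of Tek, Vegfd, Vegfa, Vegfc, Angpt1 and Kdr in interstitial progenitor-like cells and in Cxcl14 and Smoc2 progenitor-like cells (x axis) of the 4 libraries, with exact 95% Poisson intervals. Tek and Vegfd are higher in interstitial cells in all 4 libraries, and Kdr reaches 12.4 in the interstitial cells of the Lin+ iAdFASNKO library.

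Vegfd, a ligand of FLT4, came mostly from progenitor-like cells: 66.0 CPM (1472 UMIs) in Lin- control, 78.3 CPM (987 UMIs) in Lin- iAdFASNKO, 151 CPM (2164 UMIs) in Lin+ control and 245 CPM (2504 UMIs) in Lin+ iAdFASNKO. These were 94.8%, 90.6%, 95.5% and 91.1% of all Vegfd UMIs of the libraries, and unassigned cells held 1.29%, 2.94%, 3.18% and 7.39%. In mural-like cells of Lin- it was at 13.4 and 13.1 CPM and in lymphatic endothelial-like cells at 12.5 and 8.46 CPM, so that the ranges of progenitors and of these classes did not overlap. Like Tek it was higher in interstitial cells, at 259, 212, 207 and 314 CPM against 59.7, 68.6, 97.5 and 107 CPM in the same order of libraries. The ratios were 4.34 (3.49 to 5.33), 3.09 (2.55 to 3.71), 2.12 (1.92 to 2.35) and 2.93 (2.56 to 3.38).

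Vegfa, the ligand of KDR and FLT1, stood at 60.5 CPM (1350 UMIs) and 73.1 CPM (921 UMIs) in Lin- progenitor-like cells and at 96.1 CPM (1375 UMIs) and 104 CPM (1065 UMIs) in Lin+ ones. They held 92.1%, 86.6%, 92.9% and 80.9% of the Vegfa UMIs of Lin- control, Lin- iAdFASNKO, Lin+ control and Lin+ iAdFASNKO. Unassigned cells held a further 2.32%, 5.46%, 5.14% and 12.3%. A level above that of progenitors was seen in mast cell-like cells of Lin+ iAdFASNKO, at 303 CPM, from 18 UMIs in 23 cells. Neutrophil-like cells of Lin+ had 106 CPM in control, from 7 UMIs in 32 cells, and 38.8 CPM in iAdFASNKO. Blood endothelial-like cells of Lin+ iAdFASNKO had 82.7 CPM (28 UMIs). Macrophage-like cells of Lin+ had 9.51 and 22.6 CPM, and mural-like cells of Lin- 14.9 and 12.9 CPM. Unlike Vegfd, Vegfa differed little between the progenitor sub-classes: interstitial over Cxcl14 and Smoc2 cells it was past the rule in Lin- control, at 1.57 (1.10 to 2.19), and at 1.11, 1.06 and 0.830 in the other libraries.

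Vegfc, the main lymphatic growth ligand, had 2 sources. Blood endothelial-like cells had 0 UMIs in Lin- control, 29.5 CPM (9 UMIs) in Lin- iAdFASNKO, 56.2 CPM (5 UMIs) in Lin+ control and 118 CPM (40 UMIs) in Lin+ iAdFASNKO, where they held 42.1% of the library's Vegfc UMIs. Of those 40 UMIs, 33 lay in 24 arterial-like cells (177 CPM). Among these arterial-like cells, 3 had a shared barcode and held 41.1% of their UMIs of all genes. Without shared barcodes blood endothelial-like cells kept 9 Vegfc UMIs in Lin- iAdFASNKO, 5 in Lin+ control and 24 in Lin+ iAdFASNKO. Progenitor-like cells had 14.3 CPM (318 UMIs) and 4.52 CPM (57 UMIs) in Lin-, and 6.78 CPM (97 UMIs) and 4.30 CPM (44 UMIs) in Lin+. In Lin+ control the interstitial cells had 0.283 (0.160 to 0.479) of the Cxcl14 and Smoc2 level, past the rule. In Lin+ iAdFASNKO the ratio was 0.457 (0.211 to 0.987), from 18 and 13 UMIs; only 31 UMIs stood behind it. In Lin- the ratios were 0.926 (13.2 and 14.3 CPM) and 1.41 (6.14 and 4.35 CPM), within the rule.

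Angpt1, the activating ligand of TEK, was found in progenitor-like cells at 51.5 CPM (1149 UMIs) and 34.0 CPM (429 UMIs) in Lin- and at 40.5 CPM (580 UMIs) and 33.2 CPM (340 UMIs) in Lin+. Mural-like cells of Lin- held it at 36.3 CPM (95 UMIs) and 39.4 CPM (171 UMIs), within the range of the progenitors. In Lin+ it was lower in interstitial than in Cxcl14 and Smoc2 cells, at 0.502 (0.411 to 0.610) and 0.459 (0.359 to 0.588), which is the reverse of Tek. In Lin- the ratios were 0.799 and 1.35 and within the rule.

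Angpt2, the context-dependent ligand of TEK, was highest in mural-like cells of Lin-, at 56.6 CPM (148 UMIs) and 51.1 CPM (222 UMIs), and in Schwann cell-like cells. The latter stood at 35.6 CPM (8 UMIs) and 52.4 CPM (18 UMIs) in Lin- and at 66.5 and 71.2 CPM in Lin+. These Lin+ levels rest on 5 UMIs in 18 control cells and on fewer than 5 UMIs in 23 iAdFASNKO cells. The ranges of these classes overlapped. Lymphatic endothelial-like cells of Lin- had 28.3 CPM (43 UMIs) and 25.4 CPM (24 UMIs). Interstitial progenitor-like cells had 0 Angpt2 UMIs in all 4 libraries, where 3 counts would be 7.93, 4.60, 0.488 and 0.454 CPM, against 0.988, 2.51, 2.47 and 7.35 CPM (20, 26, 14 and 16 UMIs) in Cxcl14 and Smoc2 cells. In Lin- a difference was not detectable at this depth, and in Lin+ the sums were below the 20 UMIs asked of a measured gene. Progenitor-like cells in neither sub-class had 27.7 CPM (47 UMIs, 11 of them in 1 cell), 3.11 CPM (5 UMIs), 9.23 CPM (23 UMIs) and 7.59 CPM (11 UMIs).

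Genotypes were compared within a fraction, as the ratio of iAdFASNKO over control with the same size rule. Among receptors in endothelium, no member was past the rule in blood endothelial-like cells of Lin-, where 4 were measured and 12.2% of all measured genes were past it; Kdr was at 1.13 (0.678 to 1.963), Flt1 at 1.01 (0.733 to 1.41), Tek at 1.18 (0.726 to 1.99) and Tie1 at 0.814 (0.530 to 1.28). Without shared barcodes 6 control cells were left, and the ratios were 1.18 (0.581 to 2.70) for Kdr, 1.68 (0.987 to 3.09) for Flt1, 0.765 (0.454 to 1.36) for Tek, which moved to the other side of 1, and 0.609 (0.366 to 1.06) for Tie1, all within the rule. In lymphatic endothelial-like cells 8 members were measured, all but Vegfa and Vegfc, and 8.37% of all measured genes were past the rule. The receptors there stayed within it: Kdr 1.05 (0.947 to 1.16), Flt4 1.01 (0.889 to 1.14), Tek 1.22 (0.979 to 1.51), Tie1 0.859 (0.739 to 0.998) and Flt1 0.875 (0.395 to 1.85). Angpt1 was past it, at 4.61 CPM (7 UMIs) and 13.7 CPM (13 UMIs), a ratio of 2.98 (1.11 to 8.82). Without shared barcodes Angpt1 had 4 and 10 UMIs, a ratio of 3.12 (0.899 to 13.6), and was not measured. Without them Angpt2 was past the rule instead, with 32 and 12 UMIs. In the sub-class with Lyve1 or Reln 5 members were measured, in the other 7, and 0 were past the rule in either, against 8.57% and 7.95% of all measured genes. Without shared barcodes Angpt2 was lower in the sub-class with Lyve1 or Reln, with 17 and 4 UMIs (0.283, 0.0694 to 0.869), and Tek was higher in the other, with 82 and 96 UMIs (1.51, 1.11 to 2.06). In mural-like cells of Lin- 5 members were measured (Vegfa, Vegfd, Flt1, Angpt1 and Angpt2), 0 were past the rule and 9.98% of all measured genes were, with Angpt2 at 0.903 (0.730 to 1.12) and Angpt1 at 1.08 (0.838 to 1.41). No member was measured in macrophage-like cells of Lin+, where 9.99% of measured genes were past the rule.

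In blood endothelial-like cells of Lin+ 6 members were measured, and 12% of all measured genes were past the rule. Vegfa was past it, with 1 UMI in control and 28 UMIs in iAdFASNKO, 27 of them in arterial-like cells. Without shared barcodes 0 and 10 UMIs were left and it was not measured, while Flt1 was then lower, at 2063 and 1236 CPM (0.599, 0.484 to 0.745). With all cells the Flt1 ratio was 0.737 (0.607 to 0.900). These sums rest on 15 control cells and on 10 without shared barcodes. The mix of vessel types moved with genotype: arterial-like cells were 4 of 15 (26.7%) and 24 of 47 (51.1%), and venous-like cells 6 of 15 (40%) and 6 of 47 (12.8%). Its part in these values was not tested.

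**Figure D4:**
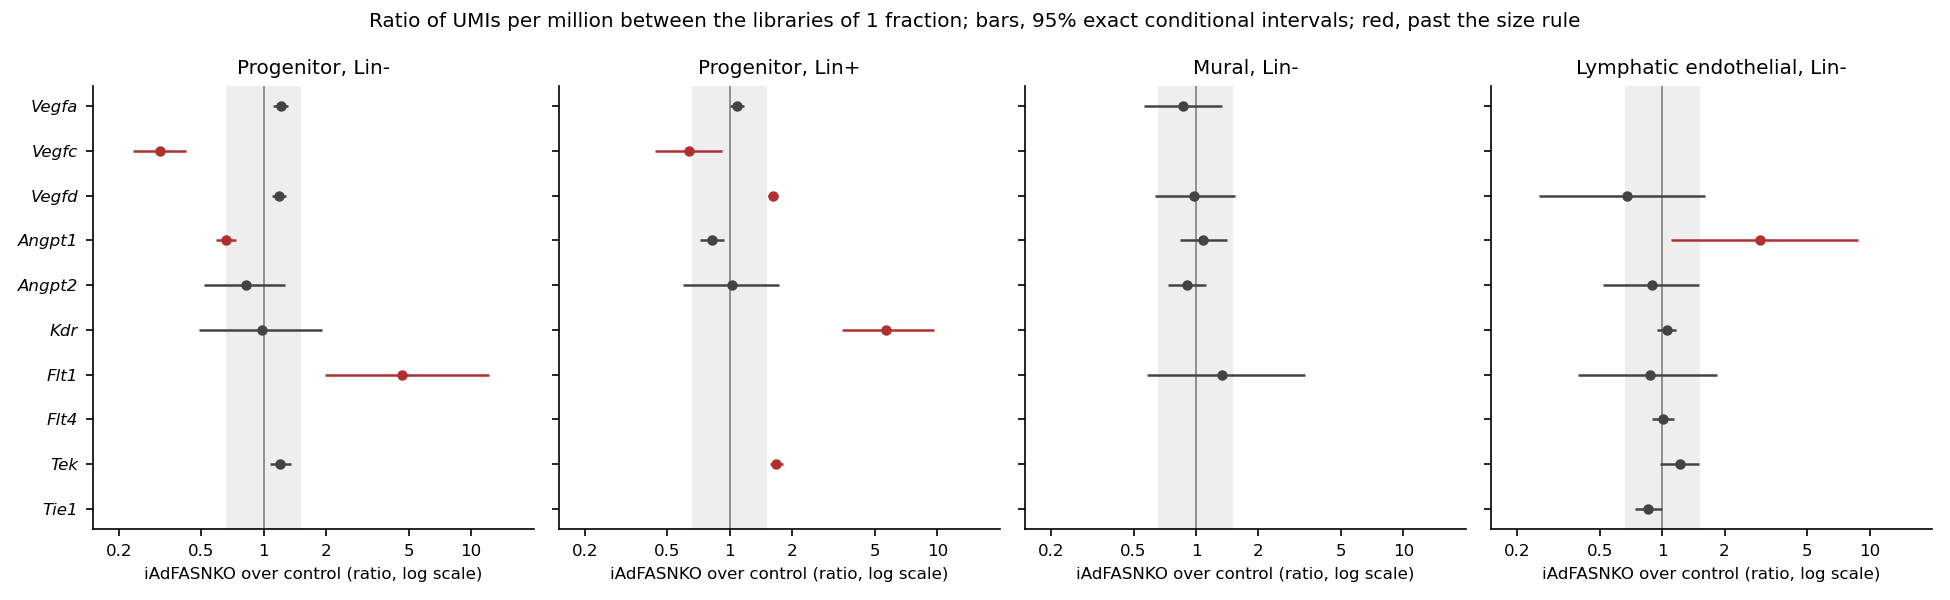
Ratio of CPM, iAdFASNKO over control (x axis, logarithmic), for each measured member (y axis) in progenitor-like cells of Lin- and Lin+ and in mural-like and lymphatic endothelial-like cells of Lin-. Bars are exact conditional binomial 95% intervals, the grey band spans 1/1.5 to 1.5, and red marks members past the size rule, such as Kdr at 5.66 in Lin+ and Vegfc at 0.317 in Lin- progenitor-like cells.

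Most member ratios past the rule in whole classes lay in progenitor-like cells. These cells also had the largest UMI sums of the classes compared, so counting error was smallest there. In Lin- 8 members were measured, all but Flt4 and Tie1, with 14.7% of all measured genes past the rule. Vegfc was lower in iAdFASNKO, at 14.3 and 4.52 CPM (0.317, 0.235 to 0.422), and so was Angpt1, at 51.5 and 34.0 CPM (0.661, 0.590 to 0.739). Without shared barcodes the Angpt1 ratio was 0.672, just inside the rule. Flt1 was higher at very low counts, with 8 and 21 UMIs (4.65, 1.98 to 12.1). Vegfa was at 1.21 (1.11 to 1.31), Vegfd at 1.19 (1.09 to 1.29) and Tek at 1.202 (1.07 to 1.35), all within the rule, as were Kdr (0.984) and Angpt2 (0.819).

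In Lin+ 7 members were measured in progenitor-like cells, all but Flt1, Flt4 and Tie1, with 14.3% of all measured genes past the rule. Vegfd was higher in iAdFASNKO, at 151 and 245 CPM (1.62, 1.53 to 1.71). Tek was higher too, at 93.7 and 157 CPM (1.68, 1.56 to 1.80). Kdr was higher from a very low level, at 1.47 CPM (21 UMIs) and 8.31 CPM (85 UMIs), a ratio of 5.66 (3.48 to 9.61). Vegfc was lower, as in Lin-, at 6.78 and 4.30 CPM (0.634, 0.434 to 0.915). Vegfa (1.08), Angpt1 (0.820) and Angpt2 (1.02) stayed within the rule. Without shared barcodes the 4 ratios past the rule were 1.60 for Vegfd, 1.64 for Tek, 6.43 for Kdr and 0.629 for Vegfc.

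The mix of sub-classes moved with these values. Interstitial cells were 1.97% and 5.42% of progenitor-like cells in Lin- and 43.0% and 63.6% in Lin+. Within interstitial cells of Lin+, where 13.1% of measured genes were past the rule, Tek was at 168 and 218 CPM (1.30, 1.198 to 1.41) and within it. Vegfd was at 207 and 314 CPM (1.52, 1.42 to 1.63), and at 1.48 and within the rule without shared barcodes. Kdr was at 1.95 CPM (12 UMIs) and 12.4 CPM (82 UMIs), a ratio of 6.36 (3.45 to 12.8). Vegfc was past the rule in neither sub-class of Lin+. Without shared barcodes it was at 0.768 (0.375 to 1.56) in interstitial cells and at 0.572 (0.287 to 1.06) in Cxcl14 and Smoc2 cells. Within Cxcl14 and Smoc2 cells of Lin-, where 14.2% were past the rule, Vegfc (0.305, 0.217 to 0.418) and Angpt1 (0.645, 0.570 to 0.728) were lower and Angpt2 was higher, with 20 and 26 UMIs (2.54, 1.37 to 4.81). In Lin- cells of neither sub-class, Angpt2 went the other way, from 47 to 5 UMIs (27.7 and 3.11 CPM), and over all Lin- progenitor-like cells it was at 0.819. In Cxcl14 and Smoc2 cells of Lin+, with 10.3% past the rule, Angpt2 was higher, with 14 and 16 UMIs (2.97, 1.36 to 6.58). Vegfd (1.10) and Tek (1.31) stayed within it there. Lin+ cells of neither sub-class had 23 and 11 Angpt2 UMIs (9.23 and 7.59 CPM).

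The 82 Kdr UMIs in interstitial cells of Lin+ iAdFASNKO were spread over 61 of 925 cells, at most 3 in 1 cell, against 10 of 704 cells in control. At 2000 UMIs per cell the shares were 1.98% and 0.303% (6.59% and 1.42% unthinned), and 0 of 822 thinned B cell-like cells of the iAdFASNKO library had a Kdr UMI, with an exact binomial upper bound of 0.448%. The 61 cells held 0 UMIs of the endothelial genes Cdh5, Cldn5, Egfl7, Emcn, Tie1 and Flt1, where 3 counts would be 4.43 CPM, and 11 UMIs of Pecam1 (16.2 CPM, against 13.7 CPM in the interstitial cells without Kdr). Pi16 was at 1660 CPM and Dpp4 at 716 CPM in them, and their median depth was 10888 UMIs against 6131 in the cells without a Kdr UMI. In Lin- the interstitial cells had 0 and 2 Kdr UMIs, too few to compare.

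Other quantities moved with genotype in the same cells. The summed level of 10 dissociation stress genes (Fos, Jun, Hspa1a and the like) was 17979 and 12723 CPM in Lin- progenitor-like cells and 8945 and 5637 CPM in Lin+ ones, with 5 and 7 of the 10 genes lower past the rule and median log2 ratios of -0.53 and -0.63, beside 0.03 and 0.13 over all measured genes. It was 12718 and 8711 CPM in mural-like and 4605 and 3674 CPM in lymphatic endothelial-like cells. In other cells it was the higher one in iAdFASNKO, at 4150 and 6522 CPM in blood endothelial-like cells of Lin+ (5 of 10 genes higher past the rule) and at 8420 and 17911 CPM in macrophage-like cells (9 of 10), while blood endothelial-like cells of Lin- had 7667 and 7360 CPM (3 higher, 2 lower). Markers of B cells stood at 7.20 and 37.7 CPM in Lin+ progenitor-like cells and the immune gene Ptprc at 6.08 and 23.4 CPM, and the summed progenitor markers at 75863 and 61194 CPM. Haemoglobin transcripts stood at 4336 and 2793 CPM in Lin+ progenitor-like cells. Their part in the member differences was not tested.

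Other genes of the pathway, from lists set together with the members, varied by class. Of 10 hypoxia pathway genes, 9 were measured in Lin- progenitor-like cells: Hif1a, the oxygen-sensing transcription factor, was higher at 1.55 (1.44 to 1.68), Bnip3 was higher at 1.87 (1.61 to 2.16), and the glycolytic gene Ldha was lower at 0.643 (0.605 to 0.683). In Lin+ 9 were measured, and Epas1 was the 1 past the rule, at 0.515 (0.445 to 0.593). Of all measured genes 14.7% in Lin- and 14.3% in Lin+ progenitor-like cells were past it. Within each Lin+ sub-class 9 hypoxia genes were measured and 0 were lower past the rule. Higher past it were 1 in interstitial cells and 3 in Cxcl14 and Smoc2 cells, where 13.1% and 10.3% of all measured genes were past it. The median log2 ratio of the measured hypoxia genes was -0.06 in Lin- and 0.07 in Lin+. Of 4 matrix inhibitors of angiogenesis, Thbs2, a secreted thrombospondin, was higher in progenitor-like cells of both fractions, at 130 and 214 CPM in Lin- (1.64, 1.56 to 1.73) and at 149 and 476 CPM in Lin+ (3.20, 3.04 to 3.37). Of the 3 inhibitors measured in each Lin+ sub-class, 2 were higher and 1 lower past the rule in interstitial cells. In Cxcl14 and Smoc2 cells 0 were higher and 1 was lower. Of the 4 other ligands, Angpt4, a further ligand of TEK, was lower in Lin+ progenitor-like cells, with 161 and 24 UMIs (0.208, 0.130 to 0.321), while Vegfb and Svep1 stayed within the rule in both fractions. Pgf, a ligand of FLT1, was higher in Lin- progenitor-like cells, with 19 and 27 UMIs (2.52, 1.35 to 4.79), and lower in mural-like cells, at 101 and 66.7 CPM (0.659, 0.556 to 0.781). Nrp2 was lower in mural-like cells, at 0.482 (0.357 to 0.648). Of the list of Nrp1, Nrp2 and Ptprb, 1 of 3 measured was higher past the rule in Lin- progenitor-like cells and 0 of 2 in Lin+. Interstitial cells had 2 of 2 higher in Lin- and 1 of 2 in Lin+, with 13.1% of all measured genes past the rule in each. Cxcl14 and Smoc2 cells had 1 of 3 and 1 of 2 higher, with 14.2% and 10.3%, and 0 were lower in progenitors. In blood endothelial-like cells 1 of 3 genes of that list was higher in Lin- and 1 of 3 lower in Lin+. There 12.2% and 12% of all measured genes were past the rule. In macrophage-like cells of Lin+ 1 of 2 was lower, with 9.99%. Sema3a, a secreted ligand of NRP1, was lower in Lin+ progenitor-like cells, with 121 and 49 UMIs (0.566, 0.398 to 0.795). Of 3 genes for VEGF-C processing, Adamts14 was higher in Lin- progenitor-like cells, at 1.76 (1.46 to 2.13), and Ccbe1 and Adamts3 were within the rule there. Of 9 VEGF response genes (Esm1, Dll4 and the like), 5 were measured in the 15 and 47 blood endothelial-like cells of Lin+. There 2 were higher past the rule and 0 lower, with a median log2 ratio of 1.24. In progenitor-like cells 1 of 5 was higher and 1 lower in Lin+, and 1 of 4 was lower in Lin-. Of 8 downstream signalling genes (Akt1, Foxo1 and the like), 2 of 6 measured were lower in mural-like cells and 0 higher, with 9.98% of all measured genes past the rule.

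Genes with the pattern most like each member over 27 class-by-library sums of at least 30 cells were taken by Pearson's r of log2(CPM + 10) among 13526 genes. The sums share 4 libraries and a class recurs in several of them, so r is a description. For Kdr the nearest genes were Tal1 (r = 0.981), Tie1 and Nova2, for Tie1 they were Ushbp1 (0.996), Nova2 and Wscd1, for Flt1 Syt7 (0.982), Syt15 and AU021092, for Flt4 Hoxd10 (0.996), Tbx1 and Tc2n, and for Tek Cyb561 (0.977), Edn1 and Ramp2. For the ligands they were Nox4 (0.974), Emx2 and Loxl1 for Vegfd, Filip1 (0.964), Mb21d2 and Chn1 for Angpt2, Hoxa10 (0.939), Nfatc4 and Slc2a10 for Angpt1, Inhbb (0.894), Sox17 and Mecom for Vegfc, and Dram1 (0.852), Gli3 and Agtr1a for Vegfa. Among the members themselves, Kdr and Tie1 were the most alike pair (0.974), followed by Kdr and Flt4 (0.907), and Vegfd and Angpt1 were the most alike pair of ligands (0.779).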

How the data were processed

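The values are UMI counts as the authors deposited them, raw and whole, per the file headers and the values. The submitters' processing notes name Cell Ranger 3.1.0, Seurat 3.0 and mm10, and the matrix header gives software version 3.0.2. Any filter on barcodes before deposit is not given in the sources used here. Gene positions come from GENCODE M21.

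A barcode was kept as a cell with 300 genes and 500 UMIs or more and with no more than 10% of its UMIs mitochondrial. Doublets called by Scrublet (scanpy 1.11.5, expected rate 0.06; 0.935% to 2.22% of cells) were removed. A cell was gated to a class with 3 or more of its markers on and 40% of the list, and 12553 of 14701 cells got a class. Raw counts were summed per class and library and given as CPM with exact intervals (scipy 1.17.1, numpy 2.4.6, pandas 2.3.3, Python 3.11.15). The ratio calculation was tested on simulated data. Leiden clusters (leidenalg 0.10.2) served as an alternative.

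All 10 members could be named in every comparison; other genes come from pathway lists, where past the size rule or where a list is short, and by nearness of pattern. Members and lists were chosen with earlier results of these data known.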

Additional observations from a re-analysis of the deposited data

Results flagged for a closer look

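For 3 members the ratio of iAdFASNKO over control lay on different sides of 1 in parallel comparisons, or was near 1 in one of them and far from it in the other. Angpt1 in Cxcl14 and Smoc2 progenitor-like cells was at 0.645 in Lin- and at 1.02 in Lin+. Kdr in progenitor-like cells was at 0.984 in Lin-, from 27 and 15 UMIs, and at 5.66 in Lin+. Vegfd in interstitial progenitor-like cells was at 0.817 in Lin- and at 1.52 in Lin+. With 1 library per genotype and fraction, the difference was not tested in any of the 3 cases.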

How the results depend on the processing

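The 8 member ratios past the size rule in whole lymphatic and progenitor-like classes kept their direction under every alternative run. Those of Lin+ blood endothelial-like cells and of sub-classes were recomputed only without shared barcodes. The count of members past the size rule in blood endothelial-like cells of Lin-, 0 as reported, was 1 with the mean of cells (Flt1), 3 without the top cell of each gene (Kdr, Flt1, Tek) and 2 with the stricter cell filter (Flt1, Tek). In lymphatic endothelial-like cells, 1 as reported, it was 0 without the top cell and 0 with Leiden classes. In mural-like cells it went from 0 to 1 with doublets kept (Kdr), and in Lin+ progenitor-like cells from 4 to 1 when a ratio of 2 was asked for (Kdr). Of the member ratios 304 of 339 and of the levels 473 of 522 stayed within their interval. In progenitor-like cells Vegfc of Lin- (0.2501 to 0.381) and Kdr of Lin+ (4.67 to 6.92) were past the rule under all 11 alternatives, Flt1 of Lin- and Tek of Lin+ under 10, Vegfd and Vegfc of Lin+ under 9 and Angpt1 of Lin- under 8. Angpt1 of lymphatic cells (1.60 to 5.37) was past it under 5 of 10, and not with the mean of cells, without the top cell, with the stricter filter, with Leiden classes or without shared barcodes. Under equal weight of the 2 progenitor sub-classes, Flt1 and Angpt1 of Lin- and Tek (1.30) and Vegfd (1.38) of Lin+ were no longer past it. That alternative, and those without shared barcodes and without Glycam1 cells, were chosen after seeing the data. No paired analysis was possible because each group is 1 library of pooled mice. Depth limits the small sums: 3 counts equal 29.6 CPM in blood endothelial-like cells of Lin- control.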
